A study of Chlorocebus sabaeus with 6 samples.

Results

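The genes described here carry iron into cells, store it, export it or sense it, and they are 9 of the 18050 genes of the table deposited for COS7 cells. They were chosen by gene symbol (SLC40A1, TFRC, FTH1, FTL, SLC11A2, IREB2, ACO1, NCOA4 and STEAP3), with their values in this comparison already known. Their differences between genotypes are therefore given as a description, with no p-value. All 9 were present in the table and passed the filter on low counts.

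COS7 is a fibroblast-like kidney line of the African green monkey (Chlorocebus sabaeus) immortalised with SV40. The study compared 3 wild-type samples (WT) with 3 samples carrying a knockout of ATL2 and ATL3 (DKO), the genes of a pair of atlastins, which fuse membrane tubules of the endoplasmic reticulum. All 6 were grown in DMEM with fetal bovine serum and without an added treatment named in the labels. The labels do not say how many knockout clones were used or whether samples of a group were separate cultures, and the p-values therefore cover sample-to-sample spread only, which could be technical.

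Cells take up iron bound to transferrin through the transferrin receptor, reduce it in the endosome and pass it to the cytosol. There it is used, stored in the ferritin shell or exported by ferroportin. Iron regulatory proteins (IRPs) sense cytosolic iron and bind short hairpins in mRNAs, the iron-responsive elements (IREs). When iron is scarce, this binding stabilises the transferrin receptor mRNA and blocks translation of the ferritin and ferroportin mRNAs. The values below are mRNA levels, and the translational arm of this control is not seen in them.

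The libraries held 14197344 to 15693049 estimated counts. Of 13094 genes tested, edgeR called 45.5% at an adjusted p below 0.05, with 23.3% higher and 22.2% lower in DKO. The knockout was checked on its targets. ATL2 had 30.6 ± 1.5 FPKM in WT and 5.94 ± 1.9 in DKO (log2 fold change -2.21, SE 0.23, edgeR adjusted p = 0.00029), and ATL3 35.8 ± 1.36 and 4.88 ± 1.25 (-2.83, SE 0.18, edgeR adjusted p = 3.7e-05; SD, n = 3 each). FPKM are counts scaled to transcript length and library size, which allows a rough comparison between genes. Log2 fold changes were fitted on the counts, which the FPKM did not always follow from sample to sample. For SLC39A14, DKO replicate 3 had the lowest count and the highest FPKM of the DKO samples. DKO replicate 3 stood apart from DKO replicates 1 and 2, by a median of 0.45 (size, log2 scale) over all tested genes and 0.44 over the 9 iron genes. Without it 74.6% of 13237 genes were called, 36.0% higher and 38.6% lower, and calls that it changes are given with and without it. As these are bulk samples, fewer cells with a transcript and less of it per cell cannot be told apart. Of the fibroblast markers VIM stood at 1533 ± 20.3 FPKM in WT and 1319 ± 51.4 in DKO, while THY1 was at 0 in all 6 samples. FN1, which encodes fibronectin, had 1838 ± 57.1 FPKM in WT and 207 ± 21.8 in DKO, whereas PDGFRB, a growth factor receptor gene of the same list, rose from 0.587 ± 0.0513 to 5.35 ± 0.743 (edgeR adjusted p = 2.3e-05). The summed FPKM of the 9 fibroblast markers measured ranged from 3360 to 3451 in WT and from 1512 to 1562 in DKO, and FN1 makes up most of the difference. Those of 7 macrophage markers ranged from 21.7 to 24.4 and from 24.4 to 37.3, where LYZ had 7.21 ± 0.448 and 17.8 ± 7.73 FPKM and CD68 15.0 ± 0.927 and 14.0 ± 0.764, and those of 4 erythroid markers from 0.96 to 1.48 and from 1.48 to 2.06. For 7 hepatocyte markers the sums were 21.0 to 23.6 in WT and 11.6 to 14.8 in DKO, and for 9 proximal tubule markers 8.46 to 9.41 and 2.87 to 3.94. The part of these markers in the results was not tested.

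In DKO the mRNA of the exporter ferroportin was nearly absent, and the mRNAs of the 2 IRPs moved in opposite directions. The mRNAs of the uptake genes TFRC and SLC11A2 were higher, and those of the 2 ferritin chains shifted toward the heavy chain. In CPM, here counts scaled to library size with the TMM factors of edgeR, 4 of the 9 genes lay higher in all DKO samples than in any WT sample (TFRC, SLC11A2, FTH1 and ACO1), and 4 lay lower (FTL, NCOA4, SLC40A1 and IREB2). Among all tested genes 30.5% lay higher and 32.0% lower in this way. STEAP3 overlapped between the genotypes, and so did TFRC when counts were scaled to library totals without these factors. The fit across all genes placed 4 members past the threshold as higher and 2 as lower. The same fit placed 3055 (23.3%) and 2904 (22.2%) of the 13094 genes there. Nothing is read from the member count, since the genes were chosen with this comparison known. Without DKO replicate 3 it was 4 and 4, without DKO replicate 1 it was 2 and 2, without DKO replicate 2 it was 3 and 3, and without WT replicate 1, 2 or 3 it was 1 (ACO1) and 2 (SLC40A1 and IREB2).

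**Figure D1:**
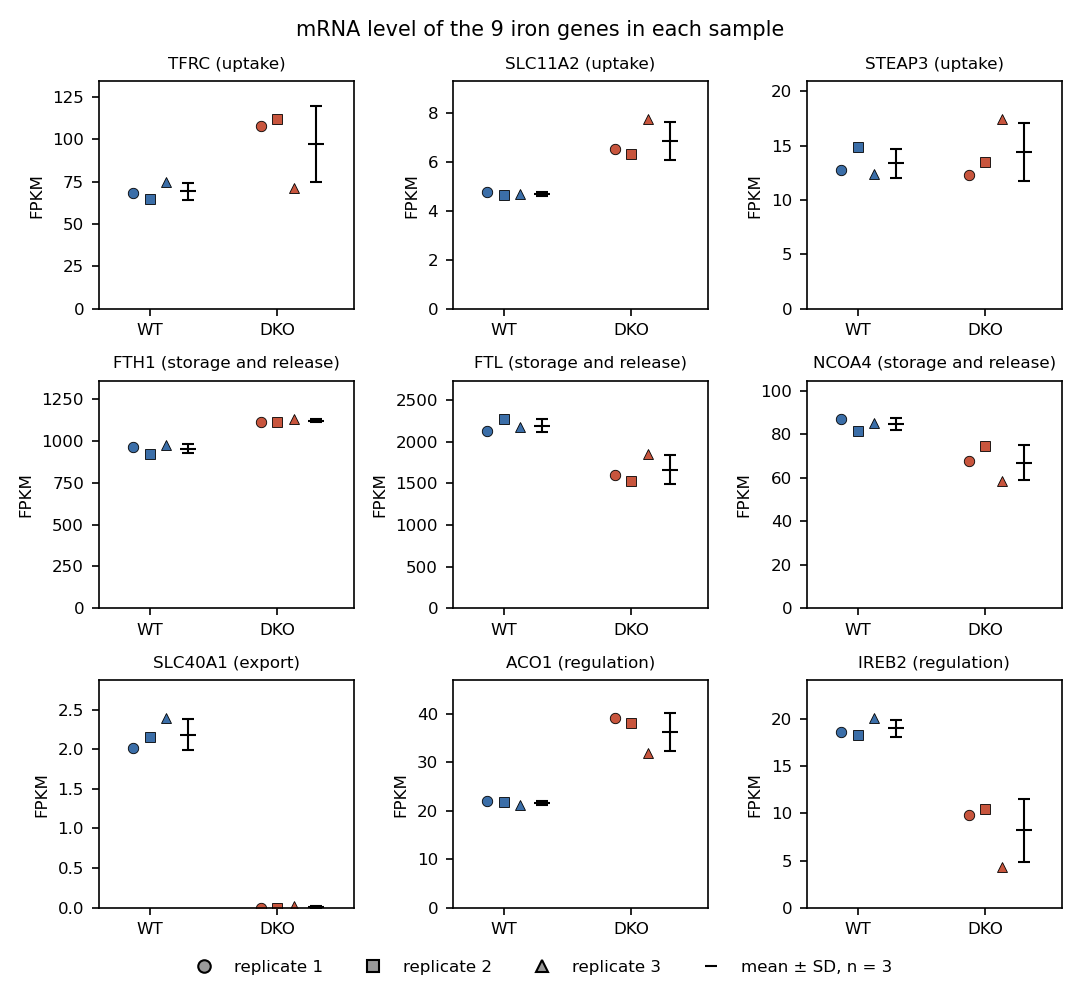
mRNA level (FPKM, linear axis from 0) of each of the 9 iron genes in every sample. Points are single samples with a shape for each replicate number, and bars are the mean ± SD of 3 samples. SLC40A1 lies at or near 0 in all DKO samples, ACO1 is higher and IREB2 lower in all DKO samples, and DKO replicate 3 of TFRC falls within the WT range.

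Ferroportin, encoded by SLC40A1 (gene ID 103217507), is the known exporter of iron from cells. It was weakly expressed in WT, with 2.01, 2.15 and 2.39 FPKM, a mean of 2.18 ± 0.192 (SD, n = 3) and rank 10371 of the 18050 genes. In DKO it had 0, 0 and 0.02 FPKM. These levels rest on 99, 105 and 118 counts for WT replicates 1 to 3, against 0, 0 and 1 for the knockouts, so the groups were far apart. The summed counts, 322 against 1, gave a ratio of WT to DKO of 316 (exact 95% counting interval 56.3 to 12509). The single count was in DKO replicate 3. Without that sample SLC40A1 was at least 33.9-fold lower in DKO, against a floor of 3 counts per library. Interval and floor cover counting error only.

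The 3 genes whose profile over the 6 samples was closest to that of SLC40A1, by the root mean square difference of log2 CPM centred on each gene, were taken from 8781 tested genes with a mean of at least 5 FPKM. They were CLDN4, a tight junction claudin gene, at a distance of 0.17, VAMP8, a vesicle SNARE gene, at 0.18 and HOXB6, a homeobox gene, at 0.18. CLDN4 had 48.2 ± 3.13 FPKM in WT and 0.823 ± 0.136 in DKO. VAMP8 had 34.4 ± 3.51 and 0.497 ± 0.126, and HOXB6 23.1 ± 0.225 and 0.58 ± 0.207. These genes kept a low level in DKO where SLC40A1 had almost no counts. The log2 CPM of SLC40A1 in DKO, and with it the choice of these 3 genes, depends on the small count that edgeR adds.

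Transferrin-bound iron enters by TFRC (gene ID 103242011), the transferrin receptor. Its level was 68.1, 65.0 and 74.8 FPKM in WT and 108, 112 and 71.2 FPKM in DKO. DKO replicates 1 and 2 were above every WT sample, whereas DKO replicate 3 was below WT replicate 3 in FPKM and per library total, and above it only with the TMM factors. The means were 69.3 ± 5.01 and 97.0 ± 22.4 FPKM, and the log2 fold change of DKO over WT was 0.52 (SE 0.16). It was 0.67 without DKO replicate 3.

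SLC11A2 (gene ID 103238312) encodes DMT1, which moves ferrous iron out of the endosome. It stood at 4.78, 4.64 and 4.66 FPKM in WT and at 6.51, 6.31 and 7.72 in DKO, with no overlap. The means were 4.69 ± 0.0757 and 6.85 ± 0.763 FPKM, a log2 fold change of 0.59 (SE 0.14), and 0.46 without DKO replicate 3. STEAP3 (gene ID 103216931), the ferrireductase that prepares endosomal iron for DMT1, had 12.8, 14.9 and 12.4 FPKM in WT and 12.3, 13.5 and 17.4 in DKO. Its groups overlapped, and the log2 fold change of 0.15 (SE 0.18) was smaller than its error. Its sign turned without DKO replicate 3, to -0.049. Within DKO, replicate 3 differed from the mean of replicates 1 and 2 by -0.54 for TFRC and by 0.36 for SLC11A2 on the log2 scale, so the sample with the least TFRC had the most SLC11A2.

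Ferritin is a shell of heavy and light chains. The heavy chain, from FTH1, oxidises ferrous iron and the light chain, from FTL, promotes the mineral core. Both mRNAs were among the most abundant of the cells, at rank 25 (FTL) and 95 (FTH1) of 18050 genes by mean FPKM in WT, and 53 and 85 in DKO. FTH1 (gene ID 103241960) had 964, 923 and 972 FPKM in WT and 1115, 1115 and 1131 in DKO. Every DKO sample was above every WT sample. The DKO samples lay close together in FPKM, whereas in log2 CPM DKO replicate 3 was 0.19 above the mean of DKO replicates 1 and 2. The means were 953 ± 26.4 and 1120.2 ± 9.31 FPKM, a log2 fold change of 0.29 (SE 0.09), and 0.22 without DKO replicate 3.

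FTL (gene ID 103235006) went the other way, with 2128, 2274 and 2176 FPKM in WT and 1606, 1525 and 1858 in DKO. No DKO sample reached the lowest WT sample, and DKO replicate 3 came nearest. The means were 2193 ± 74.7 and 1663 ± 174 FPKM, a log2 fold change of -0.33 (SE 0.14), and -0.50 without DKO replicate 3. The FPKM of FTH1 divided by that of FTL was 0.453, 0.406 and 0.447 in WT and 0.694, 0.731 and 0.609 in DKO, so the heavy chain made up a larger part of the ferritin mRNA in every DKO sample. The sum of both was 3146 ± 52.9 FPKM in WT and 2783 ± 183 in DKO, with WT samples from 3092 to 3197 and DKO samples from 2639 to 2989. Ferritin genes have many processed pseudogenes, and FTH1 was the only member whose estimated counts were not whole numbers. Its level therefore depends on how the estimation divided reads between genes.

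NCOA4 (gene ID 103215819) encodes the cargo receptor that delivers ferritin to the lysosome for release of its iron. It had 87.0, 81.6 and 85.2 FPKM in WT and 67.8, 74.3 and 58.3 in DKO. Again the groups did not overlap. The means were 84.6 ± 2.77 and 66.8 ± 8.03 FPKM, a log2 fold change of -0.37 (SE 0.13), and -0.25 without DKO replicate 3.

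The IRP mRNAs showed the widest contrast after that of ferroportin. ACO1 (gene ID 103219310) encodes IRP1, which is a cytosolic aconitase while it holds an iron-sulfur cluster and an RNA-binding protein without it. Its level was 22.1, 21.8 and 21.1 FPKM in WT and 39.1, 38.1 and 31.9 in DKO. The lowest DKO sample was well above the highest WT sample. The means were 21.7 ± 0.472 and 36.3 ± 3.91 FPKM, a log2 fold change of 0.78 (SE 0.10) that lay between 0.73 and 0.84 when each sample was left out in turn.

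IREB2 (gene ID 103245251) encodes IRP2, which has no aconitase activity and is removed by the ubiquitin ligase subunit FBXL5 when iron is plentiful. It had 18.6, 18.3 and 20.1 FPKM in WT and 9.78, 10.5 and 4.36 in DKO. All DKO samples were lower, and DKO replicate 3 was the lowest. The means were 19.0 ± 0.933 and 8.20 ± 3.34 FPKM, a log2 fold change of -1.19 (SE 0.29), and -0.90 without DKO replicate 3. That sample differed from the mean of DKO replicates 1 and 2 by -1.13 on the log2 scale, beyond the 90th percentile of the size of this difference over the tested genes (1.06).

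The ratio of ACO1 to IREB2 FPKM was 1.19, 1.19 and 1.05 in WT, so both IRP mRNAs were at similar levels there. In DKO it was 4.00, 3.64 and 7.31. By level per length, the order of the 9 genes in WT was FTL, FTH1, NCOA4, TFRC, ACO1, IREB2, STEAP3, SLC11A2 and SLC40A1, and no neighbours in this order overlapped between samples. In DKO, TFRC came before NCOA4 but overlapped with it, STEAP3 came before IREB2 without overlap, and IREB2 overlapped with SLC11A2.

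**Figure D2:**
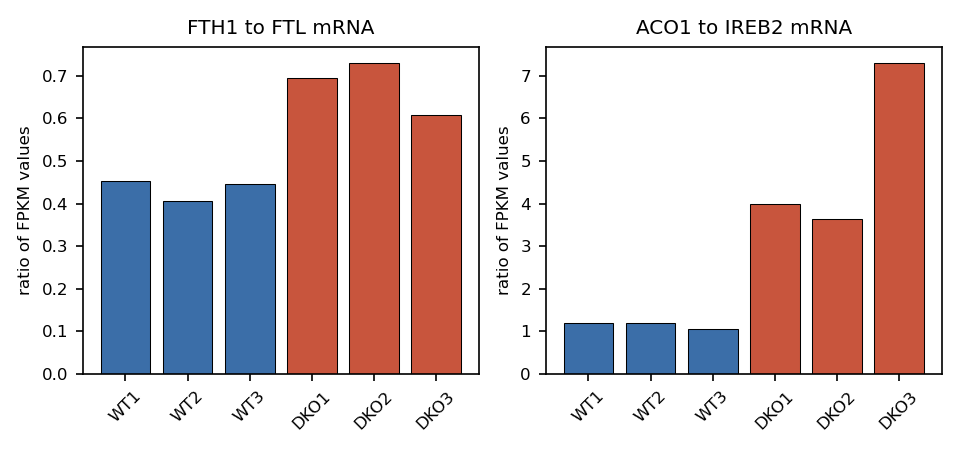
Ratio of FPKM values in each sample (bars from 0) for FTH1 to FTL and for ACO1 to IREB2. Both ratios are higher in every DKO sample than in any WT sample, and the ACO1 to IREB2 ratio reaches 7.31 in DKO replicate 3.

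**Figure D3:**
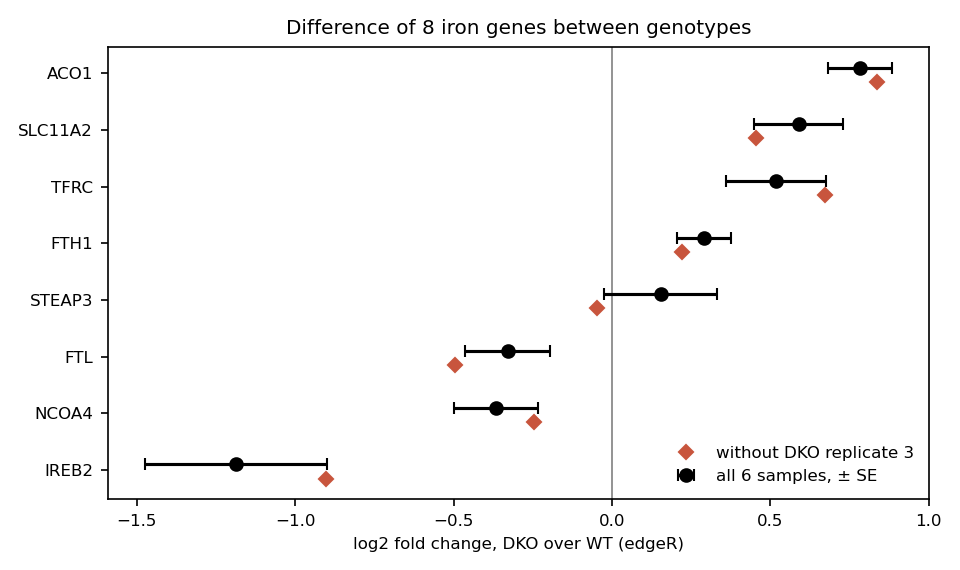
Log2 fold change of DKO over WT for 8 of the 9 iron genes, from edgeR with all 6 samples (points ± SE) and without DKO replicate 3 (diamonds). SLC40A1 is left out because its DKO counts are at or near 0. STEAP3 lies on either side of 0 in the 2 fits, and the other 7 genes keep their side.

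Genes next to the members on the chromosome were looked at after the members' values had been seen, using the order of genes in RefSeq (assembly mChlSab1.0.hap1). The 5 nearest tested genes on each side were taken. Around IREB2, 7 of 10 neighbours were lower in DKO, 0 higher and 3 not called, beside 22.2% lower and 23.3% higher of all tested genes. The neighbours had a median log2 fold change of -0.82, where all tested genes had a median of -0.01. The count lower was 7 without any 1 of the WT samples, DKO replicate 1 or DKO replicate 2. Without DKO replicate 3 it was 9, beside 38.6% of all tested genes. The nearest on each side were WDR61, which fell from 46.9 ± 3.15 to 24.7 ± 1.02 FPKM (log2 fold change -0.87, SE 0.11, edgeR adjusted p = 0.00089), and HYKK, which fell from 1.37 ± 0.05 to 0.827 ± 0.107 (-0.79, SE 0.17, edgeR adjusted p = 0.0075). PSMA4, a proteasome subunit gene beyond HYKK, had 193, 188 and 205 FPKM in WT and 115, 113 and 58.4 in DKO (-0.99, SE 0.22, edgeR adjusted p = 0.0091). As for IREB2, its lowest value was in DKO replicate 3.

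Around SLC40A1 fewer neighbours were called than around IREB2. Of its 10 neighbours 2 were lower, 0 higher and 8 not called (4 lower and 3 higher without DKO replicate 3, which differed from DKO replicates 1 and 2 by a median of -1.37 over these genes). COL5A2, a fibrillar collagen gene separated from SLC40A1 by WDR75, fell from 41.1 ± 1.82 to 1.42 ± 0.0379 FPKM (-4.81, SE 0.11, edgeR adjusted p = 2.7e-06). WDR75 itself had 36.5, 36.5 and 40.0 FPKM in WT and 43.8, 41.1 and 15.9 in DKO, and ASNSD1 on the other side 34.7 ± 2.19 and 23.6 ± 9.73 (edgeR adjusted p = 0.75 and 0.17). Without DKO replicate 3 WDR75 was called higher at 0.18 and ASNSD1 lower at -0.25. Both of these nearest tested genes had counts in every DKO sample, with the lowest values in DKO replicate 3. The part of the region in the loss of SLC40A1 mRNA was not tested. Around FTH1, 6 of 10 neighbours were higher and 1 lower (3 and 1 without WT replicate 3), and around TFRC, itself higher, 1 was higher and 5 lower. Around NCOA4, 1 was higher and 5 lower (1 and 3 without any 1 WT sample). The counts higher and lower were 3 and 1 for ACO1, 3 and 1 for SLC11A2, 2 and 2 for STEAP3 and 1 and 1 for FTL. Those for SLC11A2 held 0 higher without any 1 WT sample. Without DKO replicate 3 the counts higher and lower were 6 and 2 for FTH1 and 2 and 6 for TFRC. They were 2 and 7 for NCOA4, 7 and 2 for ACO1 and 5 and 1 for SLC11A2. For STEAP3 they were 4 and 4, and for FTL 4 and 3. Of all tested genes 23.3% were higher and 22.2% lower, and 36.0% and 38.6% without DKO replicate 3.

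**Figure D4:**
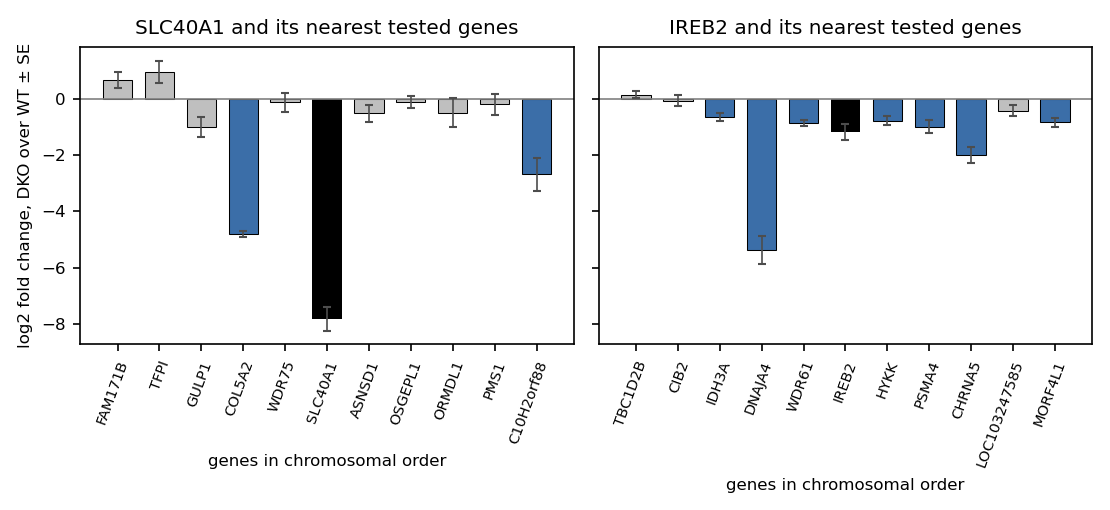
Log2 fold change of DKO over WT (bars ± SE, edgeR) for SLC40A1 and IREB2 (black) and for the 5 nearest tested genes on each side, in chromosomal order. The fitted value of SLC40A1, with 1 count in DKO, depends on the small count edgeR adds. Blue bars are genes called lower and grey bars genes not called. Most genes around IREB2 are lower, and around SLC40A1 only COL5A2 and C10H2orf88 are called.

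Other genes of iron and heme handling, 137 in 11 lists, were set beside the members. Of these, 132 were in the table and 119 passed the filter on low counts. In DKO 31 rose and 22 fell, and 66 were not called. The share called was 44.5%, against 45.5% of all tested genes. The median log2 fold change was -0.04, against -0.01. Leaving out DKO replicate 3, 49 of 120 rose and 45 fell, and without WT replicate 1, 2 or 3, 21 to 22 rose and 12 to 15 fell.

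Among 7 tested genes of iron uptake beyond the members, 2 rose, 2 fell and 3 were not called (median log2 fold change -0.14, and 4 and 2 without DKO replicate 3). The metal transporter gene SLC39A14, whose product takes up iron not bound to transferrin, rose from 81.2 ± 1.77 to 122 ± 5.95 FPKM (0.48, SE 0.09, edgeR adjusted p = 0.005). Its relative SLC39A8 fell from 38.7 ± 2.5 to 16.0 ± 5.92 (-1.26, SE 0.26, edgeR adjusted p = 0.0066). The mRNAs of this pair of ZIP transporters therefore moved in opposite directions, as did those of the IRPs. SLC46A1, a folate and heme carrier gene, rose from 9.66 ± 0.583 to 16.2 ± 3.26 FPKM (0.80, SE 0.18, edgeR adjusted p = 0.01). The ferrireductase genes CYBRD1 (22.5 ± 0.817 and 20.3 ± 7.92 FPKM) and STEAP1 (5.66 ± 0.158 and 9.78 ± 3.39) were not called, but both were called higher without DKO replicate 3, at log2 fold changes of 0.15 and 1.02. The transferrin gene TF, a liver product, had 1 to 6 counts per library.

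Of 15 genes that move the transferrin receptor through the cell, 3 rose, 3 fell and 9 were not called (median -0.13). These counts became 5 and 6 without DKO replicate 3, and without any 1 WT sample 2 and 1. PICALM, a clathrin adaptor gene, fell from 102 ± 4.11 to 53.0 ± 12.3 FPKM (-0.97, SE 0.18, edgeR adjusted p = 0.0047). The kinase gene LMTK2 rose from 10.7 ± 0.361 to 14.7 ± 0.276 (0.49, SE 0.09, edgeR adjusted p = 0.0048) and EHD1, of the recycling endosome, from 56.6 ± 1.78 to 83.4 ± 9.61 (0.60, SE 0.13, edgeR adjusted p = 0.0073). RAB11A (106 ± 4.22 and 93.0 ± 5.82 FPKM) and the retromer gene VPS35 (87.5 ± 2.96 and 71.0 ± 17.1) were not called, and both were called lower without DKO replicate 3, at -0.14 and -0.11.

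Among 7 tested iron chaperones and ferritin partners, 2 rose, 1 fell and 4 were not called (median -0.14). With DKO replicate 3 left out, 3 rose and 3 fell, and without WT replicate 1, 2 or 3, 1 rose and 0 to 1 fell. CD63, a tetraspanin gene of ferritin-carrying vesicles, rose from 505 ± 7.7 to 756 ± 23.6 FPKM (0.64, SE 0.10, edgeR adjusted p = 0.0018). The iron chaperone gene PCBP2 was called higher, from 483 ± 12.4 to 638 ± 80.2 FPKM (0.45, SE 0.13, edgeR adjusted p = 0.026), and its relative PCBP1 was not called at 259 ± 3.66 and 206 ± 16.0 (-0.28, SE 0.11). Without WT replicate 1, 2 or 3 the edgeR adjusted p of PCBP2 was 0.08, 0.093 and 0.089. PCBP1 was called lower without DKO replicate 3, at -0.40. TMEM164, a membrane acyltransferase gene, fell from 6.17 ± 0.21 to 4.17 ± 0.212 FPKM (-0.54, SE 0.12, edgeR adjusted p = 0.0086, and 0.05008 without WT replicate 3). GLRX3 had 111, 100 and 110 FPKM in WT and 98.9, 99.9 and 36.1 in DKO and was not called (-0.43, and -0.11 without DKO replicate 3).

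Of 12 genes of export and its systemic control in the table, 6 did not pass the filter on low counts. The ferroxidase gene HEPH had 1 count in each WT sample and 0 in each DKO sample, and HAMP, which encodes hepcidin, the hormone that removes ferroportin from the membrane, had 0 to 3 counts per library. Of the 6 tested genes, 2 rose, 2 fell and 2 were not called (median -0.07, 3 and 4 of 7 without DKO replicate 3, and 2 and 1 without WT replicate 1 or 3). ERFE, the gene of erythroferrone, which lowers hepcidin, rose from 3.07 ± 0.193 to 11.2 ± 1.76 FPKM (1.93, SE 0.18, edgeR adjusted p = 0.00018), with counts that were not all whole numbers. FURIN, a convertase gene whose product cleaves hepcidin, fell from 46.9 ± 0.893 to 19.5 ± 2.22 (-1.22, SE 0.13, edgeR adjusted p = 0.00032). RNF217, a ubiquitin ligase gene that acts on ferroportin, was called lower, from 7.50 ± 0.35 to 5.78 ± 0.45 (-0.66, SE 0.18, edgeR adjusted p = 0.021, and 0.074, 0.055 and 0.077 without WT replicate 1, 2 or 3). Its FPKM did not follow its counts in DKO, with 5.26, 5.99 and 6.08 FPKM from 304, 337 and 229 counts. BMP6, the ligand that induces hepcidin, was named after its values were seen, and rose from 0.203 ± 0.0874 to 2.92 ± 0.536 FPKM (3.86, SE 0.28, edgeR adjusted p = 6.2e-05). NEO1 (42.2 ± 0.947 and 46.9 ± 2.53 FPKM) and HFE (5.50 ± 0.911 and 4.52 ± 0.0656) were not called. NEO1 was called higher and HFE lower without DKO replicate 3, at 0.19 and -0.35.

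Of 9 tested genes that control the IRPs or whose transcripts are known to carry IREs, 3 rose, 2 fell and 4 were not called (median -0.13). The counts were 3 and 3 without DKO replicate 3, 3 and 1 without DKO replicate 1 or WT replicate 2, and 2 and 1 without WT replicate 1 or 3. SKP1, a subunit of the ligase that removes IRP2, rose from 233 ± 9.38 to 347 ± 46.3 FPKM (0.62, SE 0.09, edgeR adjusted p = 0.0019). FBXL5, named after its values were seen, had 17.4 ± 1.38 FPKM in WT and 12.6 ± 4.65 in DKO. It was not called (-0.44, SE 0.26), but was called lower without DKO replicate 3, at -0.18. CDC42BPA, a kinase gene, fell from 12.6 ± 0.473 to 4.06 ± 1.21 (-1.61, SE 0.21, edgeR adjusted p = 0.00085). CUL1 (73.9 ± 2.81 and 65.7 ± 11.5 FPKM) and PFN2 (73.5 ± 4.1 and 64.1 ± 24.0, with counts that were not all whole) were not called. The log2 fold changes without DKO replicate 3 were -0.03 for CUL1 (-0.13 with it) and 0.09 for PFN2 (-0.17 with it).

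Heme takes up much of the iron in cells. Of 13 heme synthesis genes, 2 rose, 2 fell and 9 were not called (median -0.12). Leaving out DKO replicate 3 gave 3 and 7, and without any 1 WT sample 1 rose and 1 fell. ALAD, an early enzyme of the pathway, had 13.9, 14.4 and 13.3 FPKM in WT and 36.1, 34.6 and 53.1 in DKO, a rise of 1.64 on the log2 scale (SE 0.22, edgeR adjusted p = 0.0011). ABCB10, a transporter gene of the inner mitochondrial membrane, fell from 18.2 ± 1.2 to 7.09 ± 1.82 FPKM (-1.32, SE 0.17, edgeR adjusted p = 0.00095). SLC25A38, a mitochondrial glycine carrier gene, was called higher, from 43.1 ± 0.353 to 58.6 ± 5.02 (0.50, SE 0.12, edgeR adjusted p = 0.014, and 0.067, 0.059 and 0.063 without WT replicate 1, 2 or 3). TMEM14C (53.4 ± 0.4 and 49.8 ± 11.3 FPKM) and UROS (44.9 ± 0.62 and 33.8 ± 2.67) were not called, and without DKO replicate 3 UROS was called lower, at -0.49, while TMEM14C went from -0.06 to 0.07.

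Of 11 tested genes of heme transport and breakdown, 2 rose, 5 fell and 4 were not called (median -0.56, and 3 and 7 without DKO replicate 3). HMOX1, the inducible heme oxygenase that frees iron from heme, had 40.2, 42.4 and 42.2 FPKM in WT and 15.1, 13.1 and 17.4 in DKO. It fell by 1.40 on the log2 scale (SE 0.16, edgeR adjusted p = 0.00045), and by 1.56 without DKO replicate 3, the highest of the DKO samples. The other heme oxygenase gene of the list, HMOX2, was named after its values were seen. It rose from 27.8 ± 2.08 to 48.3 ± 8.67 FPKM (0.85, SE 0.18, edgeR adjusted p = 0.0075). PGRMC1, a heme-binding membrane protein gene, fell from 92.0 ± 4.71 to 29.9 ± 8.51 FPKM (-1.59, SE 0.19, edgeR adjusted p = 0.00061). The lysosomal heme transporter gene SLC48A1 rose from 16.7 ± 0.255 to 29.7 ± 4.02 (0.88, SE 0.15, edgeR adjusted p = 0.003), with counts that were not all whole. FLVCR2, named after its values were seen, fell from 100, 97 and 100 counts in the wild type to 6, 1 and 1 (edgeR adjusted p = 9.4e-05). BLVRB (127 ± 12.0 and 168 ± 41.6 FPKM) and LRP1 (43.7 ± 1.29 and 35.8 ± 6.88) were not called. BLVRB was called higher and LRP1 lower without DKO replicate 3, at 0.18 and -0.45.

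Iron-sulfur clusters are built in mitochondria. Of 20 genes of mitochondrial iron and cluster assembly, 7 rose, 1 fell and 12 were not called (median 0.34). The counts were 12 and 2 without DKO replicate 3 and 4 and 1 without any 1 WT sample. ISCA1, an assembly factor gene, rose from 45.4 ± 1.99 to 76.2 ± 6.64 FPKM (0.74, SE 0.11, edgeR adjusted p = 0.0014). The scaffold gene ISCU rose from 48.4 ± 0.387 to 75.4 ± 9.44 (0.68, SE 0.10, edgeR adjusted p = 0.0017), and the chaperone gene HSPA9 from 394 ± 12.0 to 642 ± 109 (0.74, SE 0.11, edgeR adjusted p = 0.0018). BOLA3 (71.8 ± 3.66 and 57.2 ± 18.1 FPKM) and TMEM14B (57.4 ± 2.34 and 58.7 ± 22.2) were not called. TMEM14B was called higher without DKO replicate 3, at 0.32, and BOLA3 went from -0.29 to -0.11.

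In the cytosol, 9 genes place clusters into target proteins, of which 1 rose, 1 fell and 7 were not called (median 0.12). The counts were 3 and 4 without DKO replicate 3, while without any 1 WT sample 0 and 0, and without DKO replicate 1 or 2 they were 0 and 1. CIAO2A, an assembly factor gene that serves IRP1, was called lower, from 81.0 ± 1.10 to 53.9 ± 8.06 FPKM (-0.55, SE 0.15, edgeR adjusted p = 0.021, and 0.075, 0.071 and 0.076 without WT replicate 1, 2 or 3). NUBP1 was called higher by a small margin, from 21.0 ± 0.932 to 25.7 ± 0.846 (0.35, SE 0.12, edgeR adjusted p = 0.049). That call was lost without WT replicate 1, 2 or 3 (edgeR adjusted p = 0.2, 0.14 and 0.13) and without DKO replicate 1 or 2 (0.097 and 0.066). CIAO2B (54.4 ± 1.09 and 72.9 ± 20.6 FPKM) and CIAO1 (49.1 ± 1.84 and 60.5 ± 8.32) were not called, and without DKO replicate 3 CIAO1 was called higher, at 0.18, while CIAO2B went from 0.52 to 0.16.

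BACH1 represses, and NRF2 activates, the ferritin, ferroportin and heme oxygenase genes, each together with small MAF proteins. Of 8 genes of these factors, 4 rose, 2 fell and 2 were not called (median 0.05). The counts were 4 and 3 without DKO replicate 3, 3 and 1 without any 1 WT sample, and 4 and 1 without DKO replicate 1 or 2. The small MAF gene MAFF rose from 12.6 ± 0.357 to 32.5 ± 1.28 FPKM (1.41, SE 0.10, edgeR adjusted p = 6.8e-05) and MAFK from 14.9 ± 0.627 to 28.2 ± 0.772 (0.99, SE 0.10, edgeR adjusted p = 0.00033). Another small MAF gene, MAFG, named after its values were seen, was called lower, from 12.2 ± 0.821 to 9.35 ± 0.471 (-0.35, SE 0.11, edgeR adjusted p = 0.042). The MAFG call was lost without any 1 WT sample and without DKO replicate 1 or 2. KEAP1, the adaptor by which NRF2 is degraded, rose from 26.7 ± 0.77 to 47.3 ± 7.99 (0.88, SE 0.16, edgeR adjusted p = 0.0039). The genes of the factors themselves were not called, with 5.58 ± 0.609 and 4.35 ± 1.73 FPKM for BACH1 and 44.4 ± 1.83 and 34.2 ± 8.57 for NFE2L2, which encodes NRF2. NFE2L2 was called lower without DKO replicate 3, at -0.17, and BACH1 went from -0.33 to -0.06.

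Of 14 tested genes of ferroptosis, a death by iron-dependent lipid oxidation, 3 rose, 1 fell and 10 were not called (median 0.02). Leaving out DKO replicate 3, 6 rose and 4 fell, without WT replicate 1, 2 or 3, 2 rose and 0 to 1 fell, and without DKO replicate 1 or 2, 3 rose and 0 fell. The polyamine acetyltransferase gene SAT1 rose from 98.4 ± 4.12 to 182 ± 10.7 FPKM (0.94, SE 0.09, edgeR adjusted p = 0.0002) and DHODH, of the inner mitochondrial membrane, from 10.2 ± 0.608 to 17.8 ± 3.24 (0.86, SE 0.18, edgeR adjusted p = 0.008). SLC3A2, a subunit gene of the cystine transporter, was called higher, from 87.8 ± 3.16 to 121 ± 17.1 (0.54, SE 0.14, edgeR adjusted p = 0.018, and 0.071, 0.057 and 0.076 without WT replicate 1, 2 or 3). GPX4, which reduces lipid peroxides, had 277, 299 and 257 FPKM in WT and 179, 173 and 229 in DKO and was not called (-0.46, SE 0.16, edgeR adjusted p = 0.055). GPX4 was called lower without DKO replicate 3, at -0.66. CISD1, an iron-sulfur protein gene of the outer mitochondrial membrane, had 77.6 ± 3.61 and 64.1 ± 26.1 FPKM and was not called (-0.24, and 0.02 without DKO replicate 3).

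**Figure D5:**
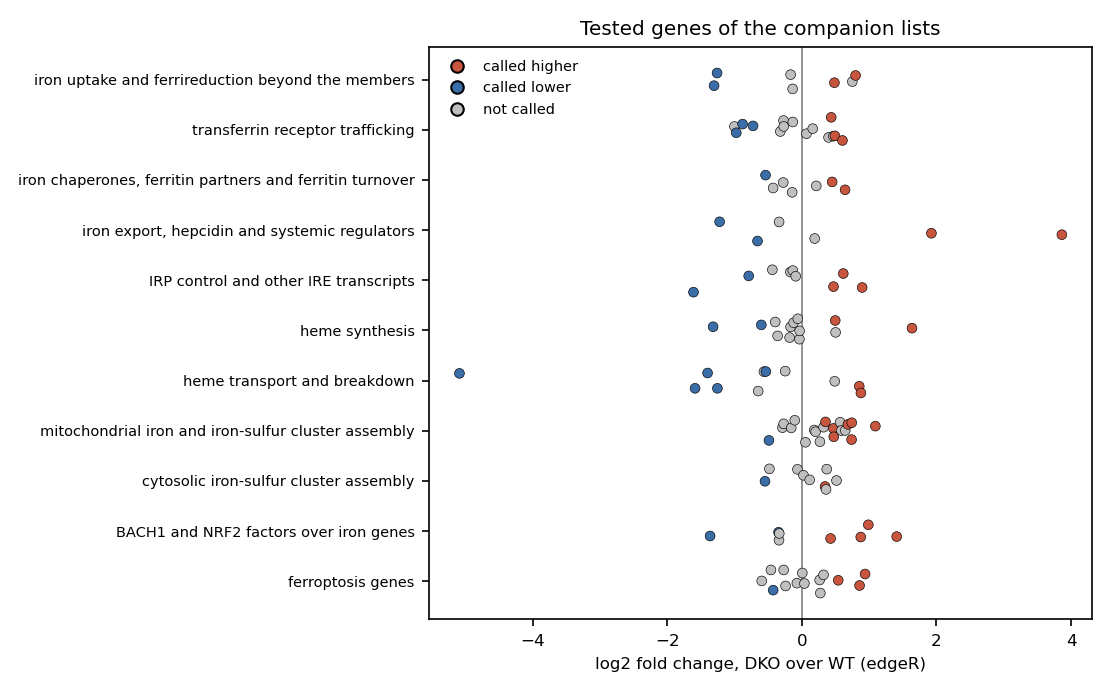
Log2 fold change of DKO over WT (edgeR, all 6 samples) for the 119 tested genes of the 11 companion lists, 1 point per gene, spread vertically within each list only for legibility. Red points are called higher, blue points called lower and grey points not called. Mitochondrial cluster assembly holds 7 genes called higher and 1 lower, and heme transport and breakdown 2 higher and 5 lower.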

How the data were processed

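The deposited table held 18050 genes. Per the file headers it gives estimated counts and FPKM values (made by the authors), of which 6 columns each were used. The submitters' processing notes list HISAT and Bowtie2. Their versions, the genome build and the program that estimated the counts were not given in the sources used here. A further 9 columns of 3 other samples were not used. Estimated counts were rounded and fitted with edgeR 4.0.16 in R 4.3.3 (quasi-likelihood test, TMM, default filter on low counts by group with a minimum count of 10), with Benjamini-Hochberg adjustment over 13094 genes and a call at an adjusted p below 0.05. The SE of a log2 fold change was taken as its absolute value over the square root of F. Levels are mean FPKM ± SD.

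The members and lists were chosen with earlier results of these data known. Named genes were the members, ATL2 and ATL3, up to 3 called genes (smallest adjusted p, groups not overlapping, at least 5 FPKM) and up to 2 not called (highest level) per list, and the 3 genes most like SLC40A1. Some named genes are not reported here. Genes were matched by the table's symbols, and 2 by the RefSeq symbol of their gene ID (mChlSab1.0.hap1, which held 16730 of the table's IDs and all 9 members). Alternatives were each sample left out, a replicate block, other scalings, no filter, DESeq2 1.42.0, limma 3.58.1 on log2 FPKM with a pseudocount of 1 or 0.1, and a threshold of 0.01. The fits were also run on simulated counts with few changed genes and no sample that stood apart. That setting differs from these data, and nothing is read from it here. Figures were drawn with matplotlib 3.10.9.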

Additional observations from a re-analysis of the deposited data

How the results depend on the processing

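Over all genes, 3055 were called higher and 2904 lower, and counts without 1 sample ran from 2105 to 4770 and from 2146 to 5110, the highest without DKO replicate 3. At an adjusted p below 0.01, 1950 were higher and 1952 lower. In the companion lists (31 and 22), counts without 1 sample ran from 21 to 49 and from 12 to 45, and at 0.01 they were 20 and 12. Whether the numbers in the sample titles pair the samples was not settled. Deviations from the group means correlated by 0.02, -0.28 and -0.29 for same-numbered samples. For samples of different numbers they correlated by -0.26 to 0.31. With 3 samples per group and DKO replicate 3 apart from the others, these values cannot decide it. With the replicate number as a block, 21 companion genes were higher and 14 lower, as were 1 and 2 of the 9 members (4 and 2 without it). Members higher ran from 1 to 4 and members lower from 2 to 4 with 1 sample left out, beside 2105 to 4770 and 2146 to 5110 genes. The upper ends came without DKO replicate 3, for the members as for the whole table. Members lower were also 4 with totals without the 100 most abundant genes and in both limma fits, when FTL and NCOA4 were called.

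Directions of the members held in every fit except that of STEAP3, which ran from -0.049 (without DKO replicate 3) to 0.26 with 1 sample left out. Values of SLC40A1 followed the pseudocount, from -1.66 (limma, pseudocount 1) to -9.71 (without DKO replicate 3). Of 416 refits of called named companion genes, 384 kept the call and 32 lost it, with 0 changes of direction. These genes were named for the smallest adjusted p in the same samples. The share kept therefore does not speak for all called companion genes. Other scalings moved the median of all genes by less than 0.1. The causes were not tested. At the depth of SLC40A1, DKO counts of 0 to 1 set only a bound on its loss.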
